A study of Mus musculus with 2 samples.

Results

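The 41 genes described here belong to the unfolded protein response of the endoplasmic reticulum (ER) and to the integrated stress response. They were picked by symbol from the 18944 genes measured, by known role but with earlier results of these data known, and all 41 were found. The ER folding branch holds 25 of them (chaperones, disulfide isomerases, lectin chaperones, the translocon and ER-associated degradation), the ATF4 branch 11, and the stress sensors with Xbp1 the other 5. They were measured by RNA sequencing of mouse cultures that the labels call intestinal stem cells, the crypt cells that renew the gut lining. There were 2 libraries, 1 of Stat6 KO cells (Lgr5GFP-CreERT2 with Stat6 KO) and 1 of WT cells (Lgr5GFP-CreERT2, otherwise WT), both from mice aged 2 months.

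The Lgr5GFP-CreERT2 allele, which both cultures carry, makes the Lgr5 gene drive a fluorescent reporter and a Cre recombinase that tamoxifen activates. STAT6 is the transcription factor activated by the cytokines IL-4 and IL-13, and the series compares cells with and without it. The labels describe infection with a lentivirus carrying CRISPR/Cas and Stat6 guides, then selection of deficient cells, and give this text for both samples. Whether the WT cells received a control virus, and whether the KO cells were 1 clone or a pool, is not stated by the labels. Both cultures grew in medium with N2, B27, EGF, R-spondin 1, the antioxidant N-acetylcysteine and Y27632. With 1 library per genotype no difference has a replicate check, and no test, standard error or p-value for genotype is given. Stat6 itself was at 44.2 FPKM in KO and 41.3 FPKM in WT, where FPKM counts fragments relative to transcript length and to the reads mapped in that library. Small deletions made by CRISPR can leave transcript levels as they were, so the value neither bears out nor contradicts the label. Lgr5, the defining marker of these stem cells, was at 1.88 FPKM in KO and 1.79 FPKM in WT, while the enterocyte gene Fabp1 stood at 7580 FPKM in KO and 2173 FPKM in WT. RNA of differentiated cells was thus present beside that of stem cells.

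Proteins that enter the ER are folded there by chaperones and by enzymes that make disulfide bonds, and those that fail to fold are sent out for degradation. When unfolded proteins build up, the membrane sensors IRE1, ATF6 and PERK respond, and the transcription factors XBP1 and ATF6 switch on chaperone and degradation genes. PERK also joins other kinases in phosphorylating the initiation factor eIF2, which slows translation in general but favours ATF4, a transcription factor for amino acid supply and stress genes. In the intestine this system is best known from the secretory Paneth and goblet cells, and IRE1 beta, encoded by Ern2, is largely restricted to mucosal epithelium.

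The ER chaperones and disulfide isomerases among the members read higher in the Stat6 KO library than in WT. The amino acid and folate enzymes of the ATF4 branch read slightly lower on the deposited scale. On that scale further ER folding genes outside the members, described below, did not read higher as a group. Differences are given as log2((KO FPKM + 1)/(WT FPKM + 1)), the log2 ratio, over the 12079 genes that reached 1 FPKM in either library. The median log2 ratio of those genes was -0.18, so that most genes read a little lower in KO. Of the 24 measured members of the ER folding branch, 23 had a log2 ratio above 0, where 3655 of the 12079 genes did. The branch median was 0.39, which is 0.57 above the median of all genes. The ATF4 branch had a median of -0.20, close to that of all genes. The difference between the medians of the branches, 0.59, does not depend on how the libraries are scaled to each other beyond the effect of the pseudocount.

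Members were counted as higher or lower where the log2 ratio was past 1.5-fold. In the ER folding branch 7 of 24 measured members were past 1.5-fold higher in KO, where 5.7% of all measured genes were, and 0 of 24 past 1.5-fold lower, against 11.4% of all genes. Among genes averaging 10 FPKM or more, nearer to the level of the members, 6.37% were 1.5-fold higher and 7.97% were 1.5-fold lower. At 2-fold only P4hb passed, where 2.44% of all genes were higher and 2.18% lower. In the ATF4 branch 1 of 11 was 1.5-fold higher and 0 of 11 lower, and of the 5 sensors none was past 1.5-fold in either direction. Summed over its members, the ER folding branch took 0.65% of all FPKM in KO and 0.417% in WT, whereas the ATF4 branch took 0.103% in KO and 0.113% in WT.

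**Figure D1:**
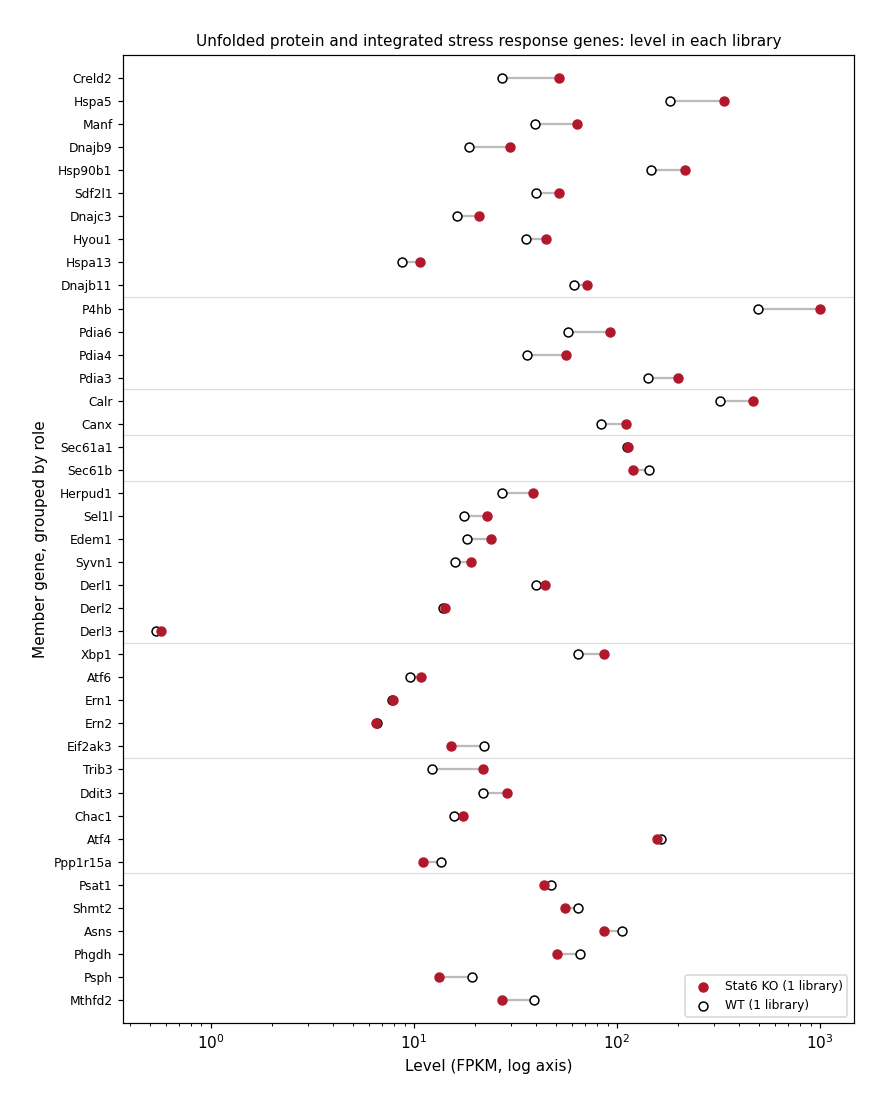
Level of each of the 41 members (FPKM, log axis) in the Stat6 KO library (filled) and the WT library (open), 1 row per gene, with lines between the role groups listed in the order chaperones, disulfide isomerases, lectin chaperones, translocon, degradation, sensors, ATF4 regulators and enzymes. The filled points lie to the right of the open ones for every chaperone and disulfide isomerase and, on this deposited scale, to the left for every enzyme of the ATF4 branch (with a trimmed mean of log ratios, TMM, as the scale Psat1 and Shmt2 change sides), and P4hb, at 1005 FPKM in KO and 494 FPKM in WT, is the most abundant member.

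Hspa5 encodes BiP, the Hsp70 chaperone of the ER lumen that also holds the sensors inactive. It was at 336 FPKM in KO and 182 FPKM in WT, a log2 ratio of 0.88, and ranked 222nd among all genes in KO and 409th in WT. Creld2, a calcium-binding ER protein known as a stress target, had the highest log2 ratio of the chaperone group. It was at 51.7 FPKM in KO and 27.1 FPKM in WT (0.91). Manf, a secreted protein that binds BiP and is released under ER stress, was at 63.8 FPKM in KO and 39.4 FPKM in WT (0.68). Dnajb9, a J-domain co-chaperone of BiP that represses IRE1, was at 29.7 FPKM in KO and 18.7 FPKM in WT (0.64). These 4 genes were the chaperones past 1.5-fold.

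The other 6 chaperones were all higher in KO by less than 1.5-fold. Hsp90b1, which encodes the ER Hsp90 protein GRP94, was at 216 FPKM in KO and 148 FPKM in WT (0.54). Sdf2l1, a partner of the BiP cycle, was at 51.9 FPKM in KO and 40.0 FPKM in WT (0.37), and the co-chaperone Dnajc3, an inhibitor of PERK, at 20.9 FPKM in KO and 16.3 FPKM in WT (0.34). Hyou1, a nucleotide exchange factor for BiP, was at 44.9 FPKM in KO and 35.8 FPKM in WT (0.32). Hspa13, a further Hsp70 of the microsomes, was at 10.8 FPKM in KO and 8.71 FPKM in WT (0.28). Dnajb11, a co-chaperone that hands unfolded proteins to BiP, had the smallest log2 ratio of the group, at 71.6 FPKM in KO and 61.5 FPKM in WT (0.22). The chaperones did not differ by a common factor, and the log2 ratio of Hspa5 was above that of its co-chaperones Dnajb9, Dnajb11 and Dnajc3 and its exchange factor Hyou1. The level of Hspa5 was 1.56 times that of Hsp90b1 in KO and 1.23 times in WT.

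The 4 disulfide isomerases among the members had the highest median of the role groups, 0.66, with 3 of 4 past 1.5-fold. P4hb, the protein disulfide isomerase that is also a subunit of collagen prolyl 4-hydroxylase and of the microsomal triglyceride transfer protein, was at 1005 FPKM in KO and 494 FPKM in WT. Its log2 ratio of 1.02 was the highest of all members, and it ranked 49th among all genes in KO and 159th in WT. Pdia6 was at 92.8 FPKM in KO and 57.3 FPKM in WT (0.69), and Pdia4 at 56.1 FPKM in KO and 35.9 FPKM in WT (0.63). Pdia3, the isomerase that works with the lectin chaperones on glycoproteins, was at 200.01 FPKM in KO and 142 FPKM in WT (0.49). Mttp, the large subunit of the triglyceride transfer protein and a gene of absorptive enterocytes, was at 697 FPKM in KO and 283 FPKM in WT. The level of P4hb was 1.44 times that of Mttp in KO and 1.75 times in WT.

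The lectin chaperones, which bind monoglucosylated glycoproteins, were each higher in KO by less than 1.5-fold. Calr (calreticulin, in the lumen) was at 467 FPKM in KO and 324 FPKM in WT (0.53), and Canx (calnexin, in the membrane) at 111 FPKM in KO and 83.8 FPKM in WT (0.40). The translocon, the channel through which proteins enter the ER, stood apart from the folding genes. Its pore subunit Sec61a1 was at 114 FPKM in KO and 112 FPKM in WT (0.02). The small subunit Sec61b was at 120 FPKM in KO and 145 FPKM in WT (-0.27), the only measured member of the ER folding branch below 0. Relative to the channel, the level of Hspa5 was 2.96 times that of Sec61a1 in KO and 1.62 times in WT, and the level of P4hb 8.84 times in KO and 4.41 times in WT. Such ratios within a library do not depend on its total.

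Of the 6 measured genes of ER-associated degradation, which draws misfolded proteins back to the cytosol, none passed 1.5-fold, and their median was 0.32. Herpud1, an organizer of the degradation complex and a strong stress target, was at 38.8 FPKM in KO and 27.3 FPKM in WT (0.49). Sel1l, the adaptor of the membrane ubiquitin ligase, was at 23.1 FPKM in KO and 17.6 FPKM in WT (0.37). Edem1, a lectin that directs glycoproteins to degradation, was at 23.9 FPKM in KO and 18.3 FPKM in WT (0.37). The ligase itself, Syvn1 (HRD1), was at 19.2 FPKM in KO and 15.9 FPKM in WT (0.26). The derlins, which form part of the exit channel, lay nearest to 0. Derl1 was at 44.2 FPKM in KO and 39.8 FPKM in WT (0.15), and Derl2 at 14.3 FPKM in KO and 13.99 FPKM in WT (0.03). Derl3 was at 0.57 FPKM in KO and 0.54 FPKM in WT and is the 1 member under the minimum level, so it enters no median or count.

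**Figure D2:**
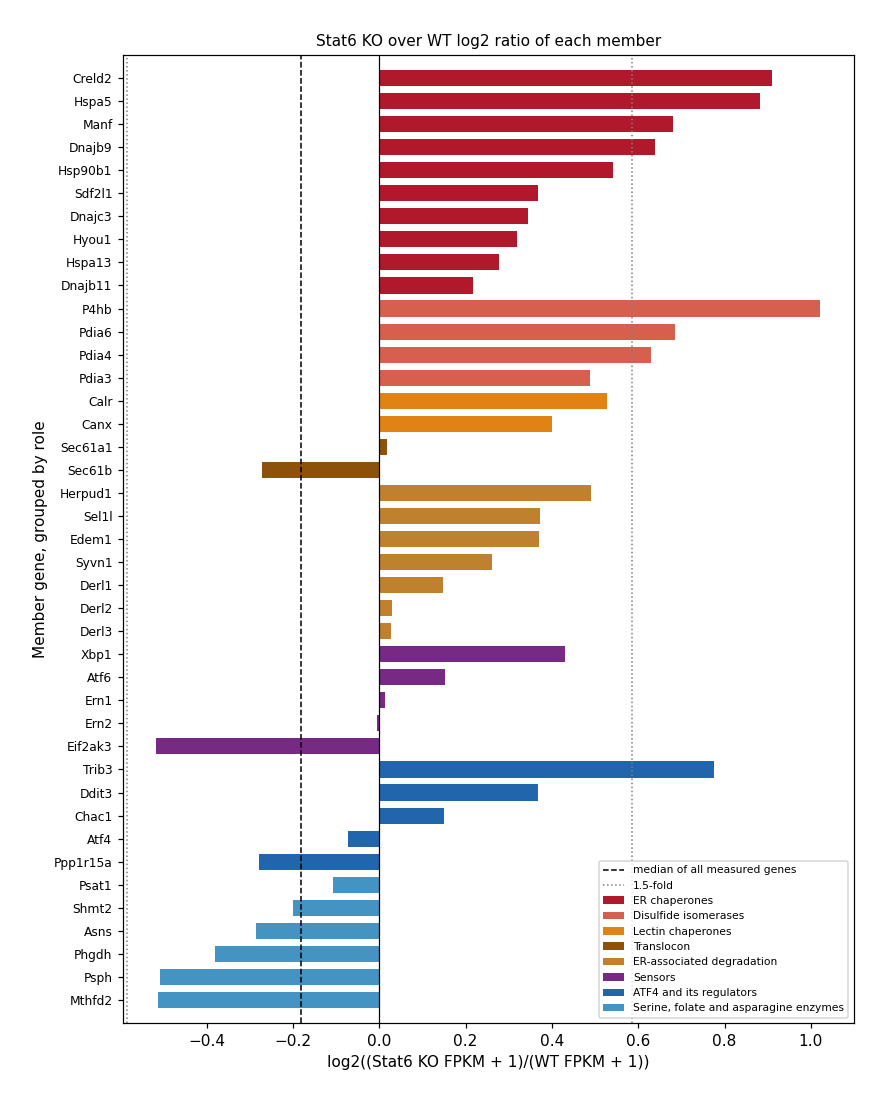
Stat6 KO over WT log2 ratio of each member, coloured by role, with the median of all measured genes (dashed, -0.18) and 1.5-fold in either direction (dotted). P4hb at 1.02, Creld2 at 0.91 and Hspa5 at 0.88 extend furthest, Trib3 is the 1 gene of the ATF4 branch past 1.5-fold, and Eif2ak3, Mthfd2 and Psph lie lowest at -0.52 to -0.51.

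Sequence was looked at because the ER folding genes read higher together, and their promoters are known to carry the ER stress response element (ERSE). This element is CCAAT, any 9 bases and then CCACG, bound by NF-Y at CCAAT and by ATF6 or XBP1 at CCACG. The RefSeq promoter table (build GRCm38.p6) holds a window of 250 bases before and 50 after the start for 34 of the 41 members. An exact match on either strand was found in 9 of the 20 ER folding members with a window, in 0 of 11 of the ATF4 branch and in 0.137% of all 27025 genes in the table. The elements printed next, with 10 bases on each side, are those of the 9 genes, each written on the strand that reads CCAAT first, with both fixed ends in capitals. Positions count from the start site, at 1.
Creld2 (chr15:88819510-88819548, minus strand, element from -126 to -108): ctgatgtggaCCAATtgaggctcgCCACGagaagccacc
Hspa5 (chr2:34772015-34772053, plus strand, element from -65 to -47): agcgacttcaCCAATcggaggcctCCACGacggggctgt
Pdia6 (chr12:17266481-17266519, plus strand, element from -98 to -80): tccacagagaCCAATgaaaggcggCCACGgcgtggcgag
Hsp90b1, distal (chr10:86705628-86705666, minus strand, element from -212 to -194): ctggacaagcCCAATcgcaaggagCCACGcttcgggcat
Hsp90b1, proximal (chr10:86705523-86705561, plus strand, element from -107 to -89): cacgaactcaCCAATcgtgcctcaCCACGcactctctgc
Calr (chr8:84847065-84847103, plus strand, element from -162 to -144): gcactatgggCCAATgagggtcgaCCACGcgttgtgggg
Canx (chr11:50325790-50325828, minus strand, element from -145 to -127): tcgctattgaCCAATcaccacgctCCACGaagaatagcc
Dnajc3 (chr14:118937817-118937855, plus strand, element from -105 to -87): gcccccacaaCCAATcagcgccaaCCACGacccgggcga
Syvn1 (chr19:6046522-6046560, plus strand, element from -44 to -26): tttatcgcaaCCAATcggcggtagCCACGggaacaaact
Derl3 (chr10:75893232-75893270, minus strand, element from -156 to -138): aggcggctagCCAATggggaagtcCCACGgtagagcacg

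The sequences above run from the highest log2 ratio (Creld2, 0.91) to the lowest (Derl3, below the minimum level). The 8 measured genes with the element had log2 ratios from 0.26 to 0.91, with a median of 0.54, and 3 of them were past 1.5-fold in KO. The 11 ER folding members that have a window but no exact match ran from -0.27 (Sec61b) to 1.02 (P4hb), with a median of 0.37, and again 3 were past 1.5-fold. The range of the genes with the element lies inside that of the genes without a match, which extends further down. The member with the highest log2 ratio, P4hb, has no exact match in its window. Genes outside the members were searched only after seeing the data. Of them 9 measured genes had an exact match, and their median was -0.16, near that of all genes. Above 0 were 2 of these genes, Ero1lb (0.29), from the list of further ER folding genes described below, and Alg12, and 7 were below 0. Alg12, a mannosyltransferase of N-glycan assembly, holds the same stretch of genome as Creld2, its neighbour on the other strand. Alg12 was at 7.24 FPKM in KO and 6.25 FPKM in WT (0.18), against 0.91 for Creld2. A match describes these letters and shows no binding.

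The 250 bases upstream of the Hspa5 start (chr2:34771840-34772089, plus strand, GRCm38.p6) are shown in full because this promoter is the one in which the element is best known. The element with an exact match is in capitals, and the window holds 4 copies of CCAAT and 1 of CCACG, counting both strands.
Hspa5: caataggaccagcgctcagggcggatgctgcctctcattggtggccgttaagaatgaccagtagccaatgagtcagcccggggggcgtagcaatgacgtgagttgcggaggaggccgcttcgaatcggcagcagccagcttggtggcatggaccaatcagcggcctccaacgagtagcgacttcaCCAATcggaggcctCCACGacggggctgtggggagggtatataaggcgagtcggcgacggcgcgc

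The related element ERSE-II, which is ATTGG, any base and then CCACG, had an exact match in 2 of 34 members and in 0.0444% of all genes. These members were Herpud1 and, with the match after the start site, Dnajb11. The XBP1 or ATF6 site TGACGTGG was found in 0 of 34 members and in 0.714% of all genes. CCACG alone stood in 27 of 34 members and 35.5% of all genes, and CCAAT alone in 27 of 34 members and 41.1% of all genes; both lie inside ERSE. For the ATF4 branch the composite C/EBP-ATF site TGATGNAAN was searched, which ATF4 binds with a C/EBP partner. It was found in 3 of 11 members of the branch (Asns, Chac1 and, after the start site, Trib3), in 1 of 20 ER folding members (Herpud1) and in 4.5% of all genes. The stricter TGATGCAA, a part of the same site, matched in Chac1 and Herpud1 and in 1.03% of all genes. The Asns and Chac1 sites are printed because these genes are textbook ATF4 targets whose levels differed little between the libraries. The Herpud1 elements are printed because both kinds lie in its window. The site of Trib3, whose log2 ratio was 0.78, is not printed, so the printed sites do not stand for every carrier in the branch. Capitals mark the site, or both fixed ends of ERSE-II.
Asns (chr6:7693214-7693242, minus strand, site from -23 to -15): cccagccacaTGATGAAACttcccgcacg
Chac1 (chr2:119351038-119351066, minus strand, site from -194 to -186): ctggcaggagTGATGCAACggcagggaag
Herpud1, ATF4 site (chr8:94386306-94386334, minus strand, site from -113 to -105): gggtgcgggcTGATGCAACccgccgtggt
Herpud1, ERSE-II (chr8:94386367-94386397, plus strand, element from -52 to -42): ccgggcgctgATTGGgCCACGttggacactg

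The sensors differed among themselves. Ern1 (IRE1 alpha) was at 7.88 FPKM in KO and 7.80 FPKM in WT, and Ern2 (IRE1 beta) at 6.53 FPKM in KO and 6.56 FPKM in WT, so both IRE1 genes read nearly alike in the libraries (log2 ratios 0.01 and -0.01). Atf6, the sensor that is cut in the Golgi to release a transcription factor, was at 10.8 FPKM in KO and 9.61 FPKM in WT (0.15). Xbp1, whose RNA is spliced by IRE1 and whose gene is itself a stress target, was at 86.6 FPKM in KO and 64.0 FPKM in WT (0.43). Gene-level FPKM do not separate the spliced from the unspliced Xbp1 RNA. Eif2ak3 (PERK), the eIF2 kinase of the ER, was the lowest sensor, at 15.2 FPKM in KO and 22.1 FPKM in WT (-0.52). The median of the 5 was 0.01, or 0.19 above the median of all genes.

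In the ATF4 branch the regulators lay on both sides of 0. Atf4 itself was among the more abundant members, at 157 FPKM in KO and 165 FPKM in WT (-0.07). ATF4 is controlled mainly at translation, which RNA levels do not report. Trib3, a pseudokinase induced by ATF4 and CHOP that feeds back on ATF4, was at 21.8 FPKM in KO and 12.3 FPKM in WT (0.78), the highest of the branch and the fourth highest of all 41 members. Ddit3, which encodes CHOP, was at 28.6 FPKM in KO and 21.96 FPKM in WT (0.37), and Chac1, a glutathione-degrading enzyme downstream of ATF4, at 17.5 FPKM in KO and 15.7 FPKM in WT (0.15). Ppp1r15a (GADD34), which brings a phosphatase to eIF2 and so ends the response, was at 11.1 FPKM in KO and 13.7 FPKM in WT (-0.28). The level of Trib3 was 0.139 of that of Atf4 in KO and 0.0746 in WT.

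All 6 enzymes had log2 ratios below 0 on the deposited scale, where 8401 of the 12079 measured genes were also below 0. None of the 6 was past 1.5-fold, and Psat1 (0.12) and Shmt2 (0.03) turned positive with TMM scaling. Their median was -0.33, which is 0.15 below that of all genes. In the serine pathway, which makes serine from a glycolytic intermediate, Phgdh catalyses the first step and was at 50.5 FPKM in KO and 66.1 FPKM in WT (-0.38). Psat1, the transaminase of the next step, was at 43.8 FPKM in KO and 47.2 FPKM in WT (-0.11), and Psph, the phosphatase of the last step, at 13.3 FPKM in KO and 19.4 FPKM in WT (-0.51). In mitochondrial folate metabolism, Shmt2, which splits serine into glycine and a one-carbon unit, was at 55.7 FPKM in KO and 64.1 FPKM in WT (-0.20). Mthfd2, which oxidizes that unit, was at 27.1 FPKM in KO and 39.2 FPKM in WT (-0.51). Asns, asparagine synthetase, was at 86.8 FPKM in KO and 106 FPKM in WT (-0.29).

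With TMM as the scale, the log2 ratios of all genes moved up by about the same amount, and the median of all genes became 0.02 instead of -0.18. Under that factor the ER folding branch had a median of 0.61 with 15 of 24 past 1.5-fold higher. The ATF4 branch had a median of 0.03 with 2 of 11 past 1.5-fold higher. Of the 12079 measured genes 1170 were then past 1.5-fold higher and 652 lower, against 689 and 1381 on the deposited scale. The rise in these counts thus includes the shift of the whole scale. Atf4, Psat1, Shmt2 and Ern2, which lay just below 0 on the deposited scale, changed sign under a scaling for that reason. Counting error is small beside most of these values. From an estimated depth of about 20000000 reads, it was 0.013 to 0.14 on the log2 scale for the 40 measured members and 0.54 for Derl3. That error covers the counting of reads only and not the variation between cultures.

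**Figure D3:**
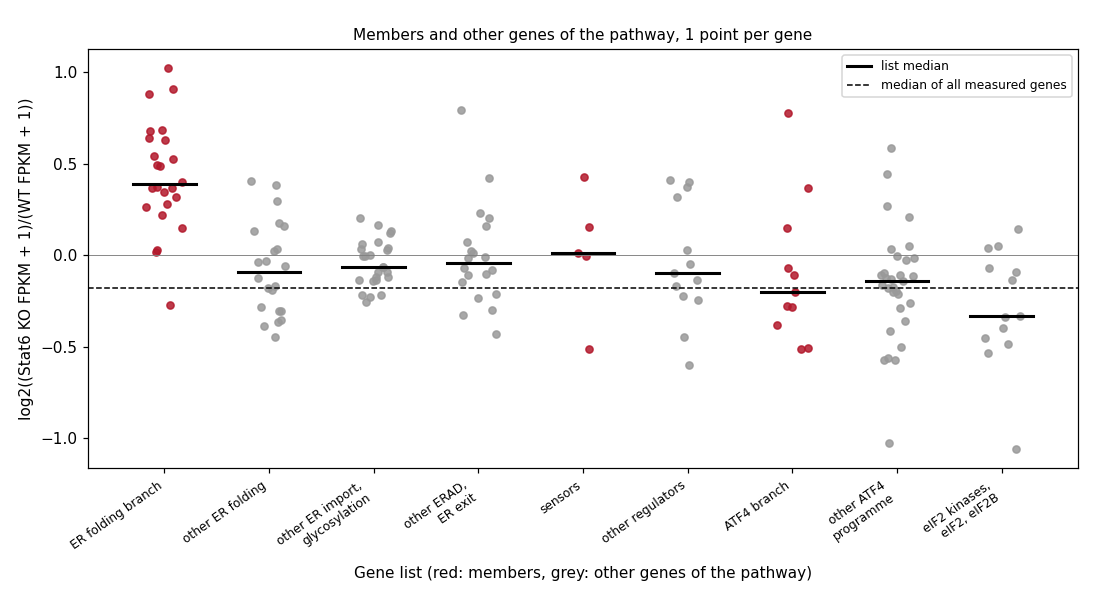
Stat6 KO over WT log2 ratio of single genes (1 point per measured gene) for the members (red) and for other genes of the same processes (grey), with list medians as black bars and the median of all measured genes dashed. The ER folding branch, with its median at 0.39, lies above the other ER lists, whose medians run from -0.09 to -0.05, and the ATF4 branch at -0.20 lies near the dashed line.

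Other genes of these processes were listed by their known roles, also with earlier results of these data known. Of 22 measured further ER folding genes 0 were past 1.5-fold in either direction, and the median was -0.09. The highest was Ero1l, the oxidase that recharges disulfide isomerases and is also induced by hypoxia, at 450 FPKM in KO and 339 FPKM in WT (0.41). Fkbp2, a prolyl isomerase, followed at 0.38, and the lowest were the glucosidase Mogs (-0.45) and the thioredoxin-domain protein Txndc5 (-0.39). Of 25 genes of ER import and glycosylation 0 were past 1.5-fold, and the median was -0.07. They lay within a narrow range, from Ssr3 (0.20) and Ostc (0.17) down to Sec11c (-0.23) and Spcs1 (-0.25). Of 20 further genes of degradation and ER exit 1 was past 1.5-fold, and the median was -0.05. This gene was Sec24d, a cargo adaptor of the COPII coat, at 78.9 FPKM in KO and 45.1 FPKM in WT (0.79). Edem3 was next at 0.42, and Ube2g2 (-0.43) and Man1b1 (-0.33) were lowest. With the TMM factor these 3 medians turned positive, to 0.14, 0.16 and 0.17, against 0.61 for the ER folding branch. The difference between members and these lists was not tested, since genes of 1 library pair are not replicates.

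Among 13 further regulators of the response, with a median of -0.10 (0.12 with TMM), 1 was past 1.5-fold. This was Traf2, the adaptor that links IRE1 to kinase signalling, at 7.54 FPKM in KO and 11.9 FPKM in WT (-0.60). Atf6b, the relative of Atf6, was at -0.45, while the antioxidant factor Nfe2l2 (0.41) and Creb3l3, an ER-bound factor of enterocytes and liver cells, stood highest. Creb3l3 was at 182 FPKM in KO and 138 FPKM in WT (0.40).

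The further ATF4 targets had a median of -0.14 over 31 measured genes (0.06 with TMM), with 0 past 1.5-fold higher and 1 lower. The lower gene was Gdf15, a stress-induced hormone, at 15.8 FPKM in KO and 33.3 FPKM in WT (-1.03). The glutamine carrier Slc1a5 was next at -0.57. The highest were Cth, which makes cysteine from cystathionine, at 0.58, and the transaminase Got1 at 0.44. In the list of other eIF2 kinases, eIF2 subunits, eIF2B subunits and further eIF2 regulators the median was -0.33 over 13 genes (-0.11 with TMM). Eif2b3, a subunit of the exchange factor that phosphorylated eIF2 inhibits, was at 10.1 FPKM in KO and 22.1 FPKM in WT (-1.06) and was the 1 gene of that list past 1.5-fold. Eif2b1 was next lowest at -0.54. The other eIF2 kinases lay near 0, with Eif2ak1, the heme-regulated kinase, at 0.14 and Eif2ak4, the kinase that senses amino acid shortage, at 0.05.

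Cell type markers also differed between the libraries. The counts of markers here and below stand against 5.7% of all measured genes past 1.5-fold higher and 11.4% lower. Of 20 enterocyte markers 19 were past 1.5-fold higher in KO, and together they stood at 20150 FPKM in KO and 6095 FPKM in WT, 4.06% and 1.21% of each total. Goblet markers, from cells with much ER, had 3 of 9 higher and 1 lower and summed to 2405 FPKM in KO and 2059 FPKM in WT. Their median log2 ratio was 0.42, with 6 of 9 above 0. The 3 past 1.5-fold higher were Clca1 (1.52), Bcas1 (1.15) and Muc2 (0.72). The 1 past 1.5-fold lower was Agr2, at 119 FPKM in KO and 245 FPKM in WT (-1.04). Paneth markers had 0 of 10 higher and 2 lower and summed to 2574 FPKM in KO and 2494 FPKM in WT. The stem cell markers had 0 of 10 higher and 3 lower, and the proliferation markers 0 of 10 higher and 6 lower, summing to 240.0 FPKM in KO and 380 FPKM in WT. The part of these cell types in the results on the ER and ATF4 genes was not tested. In bulk RNA, more cells of a type and more RNA per cell cannot be told apart.

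Markers of B cells and of plasma cells, which also have a large ER, were mostly at low levels. Of 10 such markers 4 reached the minimum level in a library, with 0 of 4 past 1.5-fold higher and 1 lower. Tnfrsf17 was listed at 0 in both libraries, and Mzb1 was at 0.39 FPKM in KO and 0.68 FPKM in WT. The part of these cells in the results was not tested. The list summed to 65.6 FPKM in KO and 83.04 FPKM in WT, most of it Sdc1, which epithelial cells also express. Of 10 stromal markers 3 reached the minimum level, with 0 of 3 past 1.5-fold higher and 2 lower. All 10 together summed to 28.7 FPKM in KO and 65.9 FPKM in WT. Vim made up most of that sum, at 25.6 FPKM in KO and 59.8 FPKM in WT.

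**Figure D4:**
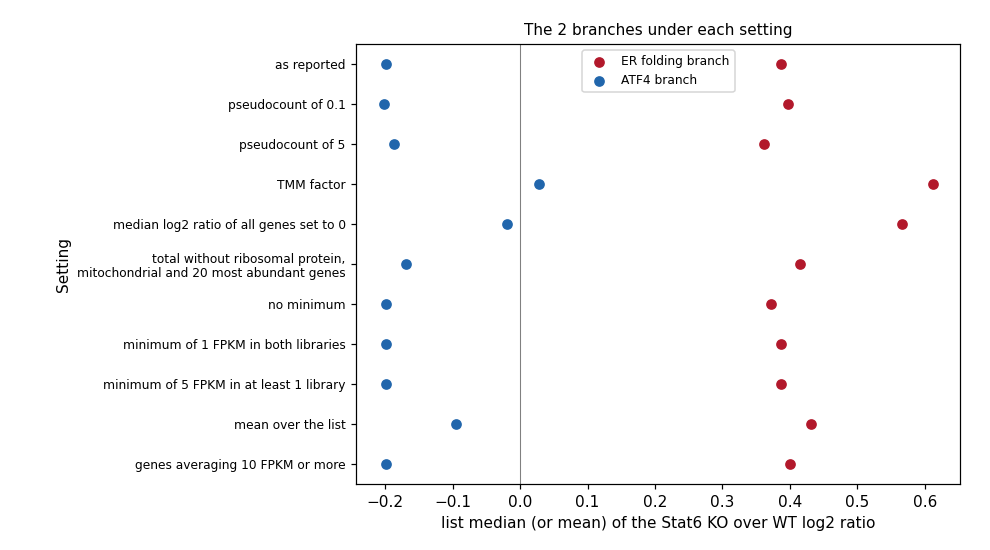
Median (for 1 setting, mean) Stat6 KO over WT log2 ratio of the ER folding branch (red) and the ATF4 branch (blue) under each setting. The ER folding branch stays between 0.36 and 0.61, and the ATF4 branch runs from -0.20 to 0.03, crossing 0 with the TMM factor only.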

How the data were processed

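Per the labels, total RNA was sequenced as single-end reads of 50 bases, 59000000 per sample on average. The deposited values are FPKM per gene, per the file headers. HISAT, Bowtie2, RSEM and mm9 are named in the submitters' processing notes. Their versions and roles, the annotation and any use of strand are not stated there, and reads of close copies or overlapping genes may be divided uncertainly.

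The tables were joined by Entrez number with Python 3.11.15 and pandas 2.3.3. The log2 ratio used a pseudocount of 1 FPKM, which understates the change of low genes. Members and lists were chosen with earlier results of these data known. All members could be named, and of each other list the 2 highest and the 2 lowest. Mttp, Alg12, Ero1lb and the marker genes named singly were chosen after their values were seen. Depth was estimated from short RNA genes, as the read total that brought values of up to 5 reads nearest to whole reads. It gave 19700000 reads in KO and 19900000 reads in WT, where 89.7% and 88.4% of values lay within 0.1 read of a whole number. The fit also took bases off each gene length, 35 in KO and 36 in WT. A search up to 59000000 reads gave 39500000 for WT, with a higher share of values, 93.9%, within 0.1 read. The WT total is therefore uncertain, and the counting errors used the lower value. The count of reads per gene used GENCODE M21 transcript lengths. The scale and fold calculations were tested on simulated data with equal numbers of genes raised and lowered. Changes in these libraries were not balanced in that way, so the test does not show which scale suits them. Protein tails, which had been planned, were not analysed here.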

Additional observations from a re-analysis of the deposited data

How the results depend on the processing

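No paired analysis was possible because each genotype has 1 library, and for the same reason no replicate could be left out. Medians are called close within 1.25-fold and counts within 1.5 times. With the TMM factor the medians of 6 lists changed sign, to 0.028 for the ATF4 branch, 0.14 for further ER folding genes, 0.16 for import and glycosylation, 0.17 for degradation, 0.12 for further regulators and 0.056 for further ATF4 targets. With the median of all genes set to 0, 5 of these turned as well, to 0.089, 0.11, 0.14, 0.082 and 0.038 in the same order after the ATF4 branch, which stayed at -0.02. The ER folding members 1.5-fold higher numbered 15 with TMM and 11 with the median set to 0, and those of the ATF4 branch 2 with TMM. At 2-fold these counts were 1 and 0, and at 1.25-fold 16 and 2, with 3 of the ATF4 branch lower. Over all genes, 1170 were higher and 652 lower with TMM, 1097 and 627 with the median set to 0, and 418 and 452 with a pseudocount of 5. With a pseudocount of 0.1, 2123 were lower, and with a minimum of 5 FPKM 901. At 2-fold 295 were higher and 263 lower, and at 1.25-fold 1382 and 3970. Among genes averaging 10 FPKM or more, a level chosen after seeing the data, 410 were higher and 513 lower. The difference between the branches ran from 0.53 (list means) to 0.60. All 357 values of single members stayed within 1.5-fold of those reported, but this was nearly fixed in advance and shows little. A minimum level leaves the ratio of a gene as it is, and a scaling moves all genes by at most 0.23 on the log2 scale. The sign changes of Atf4, Psat1, Shmt2 and Ern2 lie within that margin.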
